A study of Mus musculus with 8 samples.

Results

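Interferon-stimulated genes were followed across the cell classes of the mouse cerebral cortex in 2 laminin knockouts. The set held 9 of the 31053 genes in the count tables: Ifit1, Ifit2, Ifit3, Rsad2, Usp18, Isg15, Irf7, Bst2 and Ifi35. They were picked by name with the raw UMI counts of these libraries already known, the fall of several of them in the endothelial cells of the Lama5 knockout included, and no numerical threshold was set. Values of that comparison are therefore given for these 9 genes as a description, with no test.

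Single cells of the cortical plate were profiled with 10x Chromium 3' chemistry, which counts each captured RNA molecule once through a unique molecular identifier (UMI). Mice were 8 weeks old and were perfused with PBS, and each group was 1 pool of 3 brains loaded as more than 1 library, so that libraries of a group share their animals. The Lama4-/- mice lacked the laminin alpha 4 chain in every cell, and their WT formed a separate pool in the same experiment. The Tek-Cre:Lama5-/- mice lacked the laminin alpha 5 chain where Cre, driven by the Tek promoter, had acted, which is mainly in endothelial and blood-forming cells, and they had a WT pool of their own. Both Lama4-/- samples held the same values and were counted as 1 library, which left 7 distinct libraries: 2 WT and 1 knockout in the Lama4 experiment, and 2 WT and 2 knockout in the Lama5 experiment. A p-value below measures the spread between libraries of such pools, not between animals.

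Libraries held 35479306 to 48314458 UMIs, and 47239 of 56961 barcodes were kept as cells. Cells were grouped into classes by clustering that left out the 9 genes and the other interferon lists, and a class is called endothelial-like, microglia-like and so on from its markers. Of the kept barcodes, 58 to 96 per library also occurred in another library. The deleted genes were checked first. Lama4 in endothelial-like cells stood at 46.2 and 44.3 CPM, UMIs of a gene relative to all UMIs of the class, in its WT libraries and at 0.0606 CPM, 1 UMI, in the Lama4 knockout, and Lama5 stood at 41.6 and 41.4 CPM in its WT libraries against 22.8 and 25.6 CPM in the Lama5 knockout. Lama5 knockout endothelial-like cells were shallower than those of their WT, with a median of 2816.5 and 2598.0 UMIs a cell against 3303.0 and 3152.0.

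Type I interferons bind the receptor chains IFNAR1 and IFNAR2, the receptor-bound kinases JAK1 and TYK2 pass on the signal, and a complex that holds STAT2 and IRF9 binds the interferon-stimulated response element in the promoters of target genes. Many targets act against viruses, and others, such as Usp18, restrain the signal. In the brain, endothelial cells, microglia and border macrophages all carry the receptor, and a low level of the target genes is known in the absence of infection.

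The core of the response element can be read in the promoters of the genes themselves. Promoters were searched from 250 bases before to 50 bases after each start for GAAA, any 2 bases and GAAA again, on either strand (on the other strand, TTTC, 2 bases, TTTC), counting overlapping matches. This pattern occurred in 3.44% of 32851 mouse promoters in the RefSeq table (build GRCm38.p6), and 0.225% held it 2 or more times. Of the 9 genes, 8 were in the table, 5 held the pattern and 4 held it more than once, as did 22 of 37 other interferon-induced genes at least once. No match lay in the windows of Irf7, Ifit2 or Ifi35, which says only that these letters are not there. The 5 sequences with a match are shown because the matches differ in number, strand and spacing. Each runs 5' to 3' on the gene's strand from 250 to 51 bases before the start, and capitals mark the matches.

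Ifit1, chr19:34640639-34640838, plus strand: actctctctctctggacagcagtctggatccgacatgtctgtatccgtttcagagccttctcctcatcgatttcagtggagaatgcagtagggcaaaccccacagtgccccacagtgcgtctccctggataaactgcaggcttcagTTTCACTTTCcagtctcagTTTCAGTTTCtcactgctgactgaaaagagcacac

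Ifit3, chr19:34583279-34583478, plus strand: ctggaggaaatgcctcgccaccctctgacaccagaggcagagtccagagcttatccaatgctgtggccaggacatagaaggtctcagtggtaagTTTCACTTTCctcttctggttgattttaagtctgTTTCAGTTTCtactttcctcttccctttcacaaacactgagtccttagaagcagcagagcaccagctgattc

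Rsad2, chr12:26456503-26456702, minus strand: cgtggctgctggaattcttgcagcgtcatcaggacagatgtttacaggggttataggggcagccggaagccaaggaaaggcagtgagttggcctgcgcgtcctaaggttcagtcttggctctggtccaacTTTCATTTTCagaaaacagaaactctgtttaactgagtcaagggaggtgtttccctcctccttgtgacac

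Isg15, chr4:156200869-156201068, minus strand: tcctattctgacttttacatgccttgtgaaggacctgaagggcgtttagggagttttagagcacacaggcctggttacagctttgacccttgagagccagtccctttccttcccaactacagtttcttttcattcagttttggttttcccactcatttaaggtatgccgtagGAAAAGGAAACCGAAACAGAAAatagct

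Bst2, chr8:71537523-71537722, minus strand: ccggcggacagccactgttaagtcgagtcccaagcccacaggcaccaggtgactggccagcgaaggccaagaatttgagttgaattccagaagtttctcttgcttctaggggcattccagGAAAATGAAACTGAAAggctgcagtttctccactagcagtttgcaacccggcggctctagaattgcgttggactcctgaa

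Ifit1 and Ifit3 each had 2 separate matches, from 104 to 76 and from 156 to 113 bases before the start. In Isg15 3 matches overlapped between 78 and 57 bases before the start, in Bst2 2 overlapped between 130 and 115, and Rsad2 had a single one between 120 and 111. The near-copy of Ifit3 beside it, Ifit3b at chr19:34607970-34613401, held the same pair of matches, 188 to 145 bases before its own start. In GRCm38 (GENCODE M21) the 3 Ifit genes lie together on the plus strand of chromosome 19, Ifit2 at 34550694-34576419, Ifit3 at 34583531-34588731 and Ifit1 at 34640871-34650009. The other genes are on other chromosomes: Isg15 at chr4:156199424-156200818, Usp18 at chr6:121245906-121270917, Irf7 at chr7:141262706-141266481, Bst2 at chr8:71534255-71537456, Ifi35 at chr11:101448407-101458698 and Rsad2 at chr12:26442746-26456452. Reads were counted over whole genes, and reads from Ifit3 and Ifit3b may be shared.

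Endothelial-like and perivascular macrophage-like cells had the highest summed level of the 9 genes among 8 classes compared. The 5 classes with under 47 cells in some library, such as monocyte or dendritic-like cells at 146 to 699 CPM and fibroblast-like cells at 206 to 522 CPM, are left out of this order. Over the 7 libraries the sum ran from 931 to 1348 CPM in endothelial-like cells and from 761 to 1505 CPM in perivascular macrophage-like cells. Of these classes, the next were smooth muscle-like cells at 242 to 319.9, microglia-like cells at 153 to 292 and pericyte-like cells at 151 to 238 CPM. The microglia-like range overlapped both others, and the smooth muscle-like range lay just above the pericyte-like one. Astrocyte-like, oligodendrocyte-like and neuron or neuroblast-like cells stayed at 20.3 to 52.5, 19.8 to 63.3 and 16.1 to 122 CPM. These CPM were scaled by TMM factors within each class and experiment where every library of the experiment had at least 50 such cells. Elsewhere plain totals were used, as for oligodendrocyte-like cells of the Lama4 experiment, with 47 cells in the knockout. In every class a lower level in a sum over cells can come from fewer cells with the RNA or from less RNA in each, which the sum alone cannot separate.

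**Figure D1:**
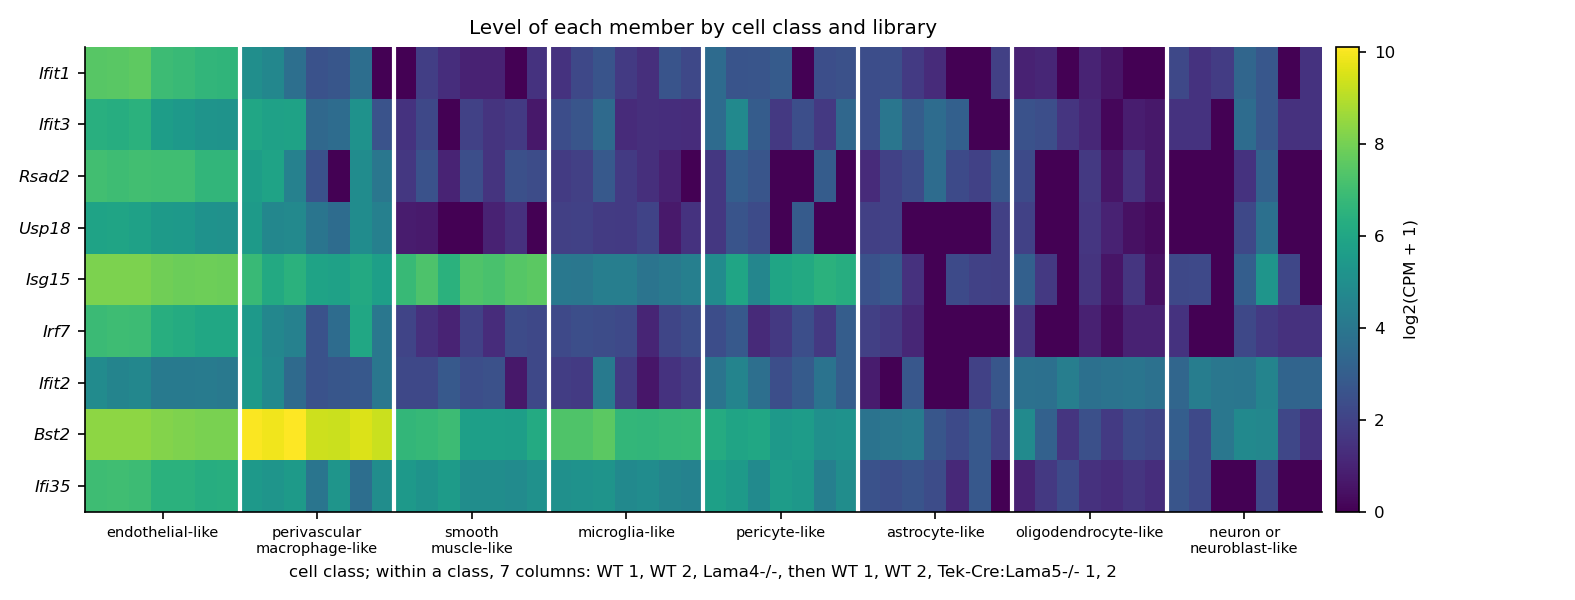
Level of the 9 genes in 8 cell classes. Each column is 1 library of a class and each row 1 gene; colour is log2 of CPM plus 1, summed over the cells of the class. Bst2 is high in perivascular macrophage-like and endothelial-like cells, and the other 8 genes are highest in endothelial-like cells in most libraries.

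The classes differed in which members made up the sum. Bst2 encodes tetherin, a membrane protein that holds budding virus particles at the cell surface. It made up most of the signal of both macrophage classes, with 631 to 1109.8 CPM in perivascular macrophage-like and 101 to 191 CPM in microglia-like cells. Isg15, a ubiquitin-like protein that is joined to other proteins, ran from 86.9 to 188 CPM in smooth muscle-like cells and from 229.9 to 277 CPM in endothelial-like cells. Microglia-like cells had only 14.0 to 19.7 CPM of Isg15, a range below that of smooth muscle-like cells. Ifi35, a partner of other interferon-induced proteins, ran from 21.2 to 36.8 CPM in microglia-like and from 77.6 to 129 CPM in endothelial-like cells. The remaining 6 genes were near the floor in microglia-like cells, at 0 to 6.07 CPM, except for Ifit3 at 10.4 and Ifit2 at 17.2 CPM in the Lama4 knockout.

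In endothelial-like cells of the Lama5 knockout, 7 of the 9 genes were lower in both knockout libraries than in both WT libraries, and Isg15 and Ifit2 overlapped with WT. This arrangement held for 29.4% of the 15576 genes with 10 or more UMIs, and 18.3% of 13238 genes were called in this comparison by edgeR's quasi-likelihood test at an adjusted p under 0.05, 8.12% as lower and 10.1% as higher. The genes were chosen with this comparison in view, so nothing is read from their count against those shares. The sum of the 9 genes was 1046 ± 29.4 CPM in WT and 933 ± 3.32 CPM in the knockout (mean ± SD, n = 2 libraries each, as for each pair of means below). The median log2 fold change of the 9 was -0.232, beside -0.00148 over all genes tested.

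The antiviral effectors come first. Rsad2 encodes viperin, an enzyme that makes a chain-terminating nucleotide, and it stood at 128 and 130.1 CPM in WT against 100 and 99.4 CPM in the knockout. Its knockout libraries were the lower ones by far more than the gap within either pair, with a log2 fold change of -0.36 (SE 0.0325), a ratio of 0.781. Ifit3, which with Ifit1 and Ifit2 forms a family of proteins that bind viral RNA, stood at 49.2 and 43.9 CPM in WT against 37.1 and 36.0 CPM in the knockout. Both knockout libraries were lower, with a log2 fold change of -0.33 (SE 0.0580). Ifit1, which binds RNA whose cap lacks a methyl mark, stood at 120.4 and 115 CPM against 101 and 96.7 CPM. The groups did not overlap, and the log2 fold change was -0.23 (SE 0.0359).

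Ifit2, the neighbour of Ifit3 on chromosome 19, did not follow the other Ifit genes. It stood at 16.7 and 16.3 CPM in WT and at 17.3 and 16.1 CPM in the knockout, so that the knockout libraries lay on both sides of WT. Its log2 fold change was 0.04 (SE 0.0790), and its sign turned in 2 of 13 alternative settings. The counts behind these values were 372 and 352 UMIs in WT and 310 and 268 in the knockout.

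Bst2 had 299 and 287 CPM in WT and 269 and 273 CPM in the knockout, a small difference of -0.10 in log2 (SE 0.0257) with no overlap. Ifi35 had 88.0 and 86.1 CPM against 77.6 and 79.9 CPM, a difference of -0.13 (SE 0.0378), also with no overlap.

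Regulators and the Isg15 system gave mixed values. Irf7, the transcription factor that amplifies interferon production, stood at 80.3 and 74.3 CPM in WT and at 63.7 and 64.9 CPM in the knockout, a log2 fold change of -0.25 (SE 0.0442). Usp18 removes ISG15 from proteins and blocks the interferon receptor, and it stood at 45.1 and 42.4 CPM against 34.7 and 33.7 CPM, a log2 fold change of -0.34 (SE 0.0544). In both genes the knockout libraries lay below both WT libraries. Isg15 stood at 239.9 and 229.9 CPM in WT and at 235 and 231 CPM in the knockout, inside the WT range. Its log2 fold change was 0.00 (SE 0.0266), and its sign turned in 8 of 13 alternative settings. Across the 13 settings the values of the 7 lower genes kept their sign, Bst2 ranging from -0.18 to -0.07 and Rsad2 from -0.43 to -0.32.

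**Figure D2:**
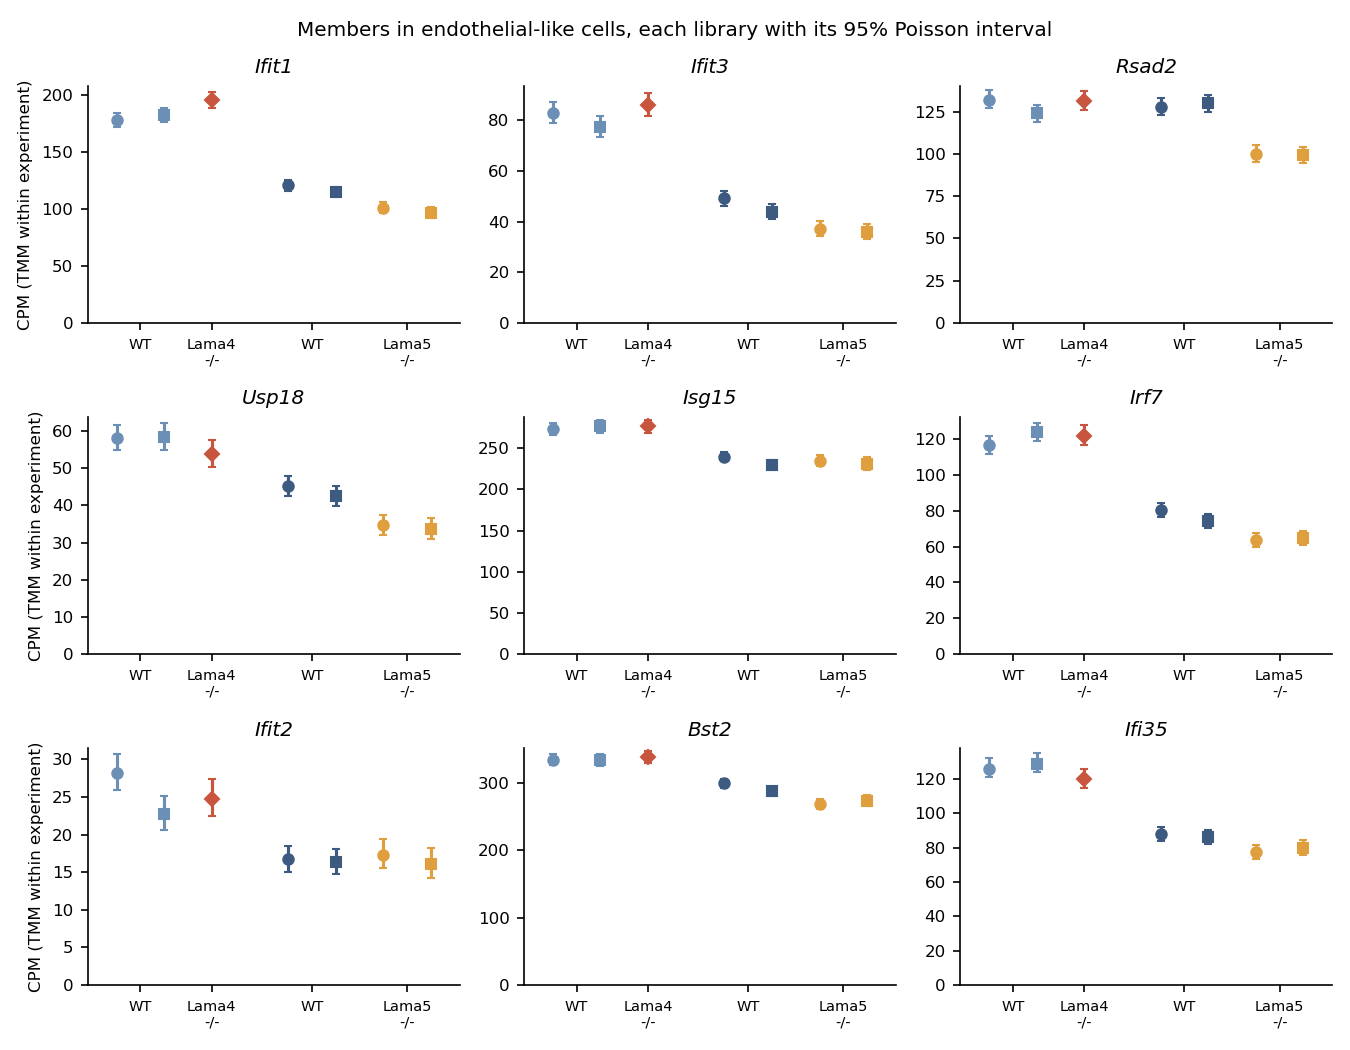
CPM of each of the 9 genes in endothelial-like cells, 1 point per library with its exact Poisson 95% interval (counting error only). Rsad2 is at 128 and 130.1 CPM in the Lama5 WT libraries and at 100 and 99.4 in the knockout, while Isg15 and Ifit2 overlap; in the Lama4 experiment the knockout point lies close to its WT for all 9 genes.

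Other values moved between the same libraries, and their part in these differences was not tested. In the Lama5 experiment the summed level of 12 dissociation-induced genes in endothelial-like cells was 18943 to 18992 CPM in WT and 17252 to 17504 CPM in the knockout. The transcript Gm42418, which overlaps ribosomal RNA, stood at 35063 to 35847 CPM in WT and at 64312 to 70186 CPM in the knockout. Erythroid genes summed to 343 to 368 CPM in WT and 89.9 to 90.9 CPM in the knockout, microglial markers to 105 to 107 and 135 to 136 CPM, and astrocyte markers to 1088 to 1099 and 875 to 887 CPM. Markers of perivascular macrophages, the other class with high levels of the 9 genes, were near 0 in endothelial-like cells, at 3.43 to 4.22 CPM in WT and 1.48 to 1.64 CPM in the knockout.

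To see whether the level was spread over the cells or held by a subset, each cell was thinned to 2000 UMIs and cells with fewer were left out. At that depth, 22.9% and 21.7% of WT endothelial-like cells in the Lama5 experiment had 3 or more of the 9 genes detected, against 17.3% and 16.8% in the knockout. Exact 95% intervals, which cover counting error only, were 21.6 to 24.1% and 20.5 to 23.0% in WT, and 16.1 to 18.6% and 15.5 to 18.1% in the knockout. The knockout libraries were the lower ones with no overlap, by 5.25 percentage points (22.3 ± 0.792% against 17.0 ± 0.369%). Thinning left out 693 and 789 WT cells and 1079 and 1389 knockout cells. Before thinning, 42.8% and 40.9% of WT cells and 34.2% and 31.3% of knockout cells reached 3. Among astrocyte-like cells, a class with little of this RNA, 0 to 0.559% of thinned cells had 3 or more, and in oligodendrocyte-like cells, whose median depth was above that of endothelial-like cells in all 7 libraries, 0 to 0.113%. In perivascular macrophage-like cells the share was 5.88% and 5.13% in the Lama4 WT and 7.45% in the Lama4 knockout. A Lama5 knockout library had 0 of 51, and the other Lama5 libraries had under 50 such cells. Smooth muscle-like cells had 0.245 to 1.81% and pericyte-like cells 0 to 1.44%.

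Over the 7 libraries, endothelial-like cells with 3 or more of the genes carried 47.0 to 65.1% of the member UMIs. In the Lama5 experiment this share was 55.5% and 53.0% in WT and 47.0% and 47.2% in the knockout. Their own level was 2747 and 2632 CPM in WT and 2542 and 2652 CPM in the knockout, which overlap. Cells with fewer than 3 had 652 and 647 CPM in WT and 601 and 598 CPM in the knockout. The share of cells with none of the 9 detected was 22.6% and 22.7% in WT and 26.9% and 26.3% in the knockout. So the knockout had more cells with none, fewer with 3 or more, and a lower level in the cells below 3; these 3 values come from the same counts and are not independent of each other.

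**Figure D3:**
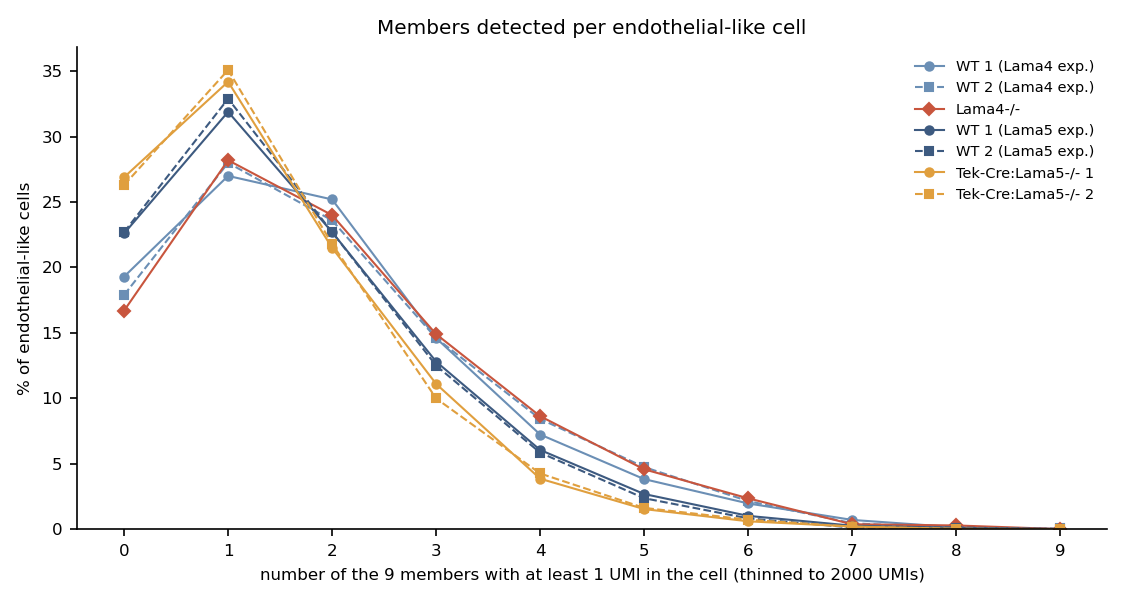
Percent of endothelial-like cells with 0 to 9 of the genes detected, each cell thinned to 2000 UMIs, 1 line per library. The 2 Lama5 knockout libraries have the most cells with none (26.9% and 26.3%) and the Lama4 experiment has the most cells with 3 or more (28.5% to 31.1%).

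By gene, the share of thinned endothelial-like cells with a UMI moved as the level did. Rsad2 was detected in 20.5% and 21.3% of WT cells and in 15.8% and 15.9% of knockout cells of the Lama5 experiment. Ifit1 was detected in 17.7% and 17.8% against 14.4% and 14.7%. Isg15 was detected in 31.5% and 30.3% against 30.9% and 29.9%, with overlap. Ifit2 was detected in 3.22% and 2.92% against 3.17% and 3.02%, again with overlap.

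The lower share was seen in every cluster of the Lama5 experiment that was named endothelial-like and could be compared. Cells without a class name are left out here. A cluster of such cells went the other way, at 3.70% (1 of 27) and 2.70% (1 of 37) in WT. Its knockout shares were 18.8% (16 of 85) and 6.67% (5 of 75), both above both WT libraries. Most members were also higher in its knockout cells, as described under Other observations. The cluster with the highest share, led by Gkn3 and Sema3g, genes of arterial endothelium, had 36.3% and 30.0% of WT cells with 3 or more of the genes and 27.1% and 25.3% of knockout cells. The other cluster led by these genes had 24.5% and 25.6% against 19.1% and 17.0%. A cluster led by Car5a and Cldn5, the latter a tight junction protein, had 20.4% and 18.7% against 14.6% and 16.4%. The cluster led by Cldn5 and Tmem252 had 24.0% and 21.8% against 17.3% and 19.3%, and the one led by Tmem252 and Slc38a5 had 16.0% and 18.4% against 12.8% and 10.0%. Both knockout libraries were below both WT libraries in all 5, and the 5 clusters share their libraries. In the Lama4 experiment the Gkn3 and Sema3g cluster again had the highest share, 31.1% and 38.3% in WT and 37.6% in the knockout, and the venous-type cluster led by Lcn2 and Vwf the lowest, 19.8% and 13.3% against 12.9%.

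Within a library most pairs of the genes were detected together more often than their separate shares would give. Among endothelial-like cells with Ifit3, 28.5 to 54.4% also had Ifit1, against 13.3 to 22.8% of cells without Ifit3, a ratio of 2.00 to 2.71 over the 7 libraries. Ifit2 was found in 9.86 to 11.7% of cells with Ifit3 and in 2.32 to 2.83% of cells without, a ratio of 3.53 to 4.43. Both pairs had a ratio above 1 in 7 of 7 libraries. Other pairs were looser: Rsad2 had a ratio of 0.995 to 1.29 in cells with Bst2, and Ifi35 one of 0.813 to 1.66 in cells with Usp18. These and the pairs of Ifi35 with Irf7 and with Ifit2 were the only ones with a library below 1. These ratios are over cells of the same library, which share its depth.

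The genes whose level followed the set most closely were other interferon targets. In cells with 3 or more of the 9 genes over the other endothelial-like cells of the library, Ifit3b was higher by 2.97 to 4.16 times, Oasl1 by 2.74 to 3.8 times, Ifi44 by 2.17 to 2.59 times and Cmpk2 by 2.16 to 2.47 times. Zbp1, a sensor of nucleic acids, followed with 1.97 to 2.91, then Oasl2, Tgtp2, Oas1a and Xaf1. The tenth, Cd274, which encodes the checkpoint ligand PD-L1, had 1.65 to 2.16 and was the only one of the 10 outside the interferon lists. The ranking took the lowest of 7 library ratios among 9463 genes with at least 10 UMIs in the former cells of every library. Reads of Ifit3b may be shared with Ifit3, so that its place can come from the choice of cells. Median depths of both kinds of cell were close in the Lama5 WT, 3613.0 and 3608.5 UMIs in 1 library, and differed either way in the Lama4 WT, 6527.0 and 6042.0 in 1 library and 5574.0 and 5890.0 in the other.

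Other genes of the pathway in endothelial-like cells of the Lama5 knockout were tested with edgeR's quasi-likelihood test, adjusted over all genes. These lists, used for every class and comparison below, were also chosen with earlier results of these data known. Their genes belong to the same pathway as the members and were measured in the same libraries. Their counts and p-values are therefore a description, not independent support for the fall of the members. Of 79 tested genes on these lists, 24 were lower and 7 higher, beside 8.12% and 10.1% of all genes, with a median log2 fold change of -0.0961 beside -0.00148 over all genes. Of these, 8 of the lower and 3 of the higher genes kept their call in all 13 alternative settings. DESeq2 called 8 lower and 4 higher, with 361 lower and 582 higher over all 13238 genes. Without TMM scaling the split was 41 lower and 3 higher, with 2758 lower and 770 higher over all genes.

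Among receptors, 2 of 5 tested were lower. Il10rb, a chain shared by the interleukin 10 and interferon lambda receptors, fell from 138 and 129.8 CPM to 116 and 113 CPM (log2 fold change -0.21, edgeR adjusted p = 1.42e-04). Ifngr1, of the interferon gamma receptor, had -0.19 (adjusted p = 0.0142 by edgeR) and lost its call in 3 settings. Among 6 signal transducers, Stat2 and Irf9, both parts of the complex that binds the response element, were lower by -0.22 and -0.17 in log2 (edgeR adjusted p = 0.00374 and 0.00120), and neither passed with DESeq2 (0.125 and 0.0618). Jak2, a receptor kinase, was higher by 0.17 (edgeR adjusted p = 0.0140), a call lost in 5 settings. Among 6 inhibitors, Socs1, which blocks the receptor kinases, rose from 34.3 and 35.6 CPM to 42.6 and 44.0 CPM (0.32, edgeR adjusted p = 1.16e-04), while Ptpn11 was lower by -0.13 in a call lost in 7 settings.

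Among 11 sensors and adaptors, 3 were lower and 1 higher. Tlr3, an endosomal receptor for double-stranded RNA, had 28.0 and 29.4 CPM in WT and 21.9 and 23.4 CPM in the knockout (-0.33, edgeR adjusted p = 0.00103, and 0.0501 with DESeq2). Mb21d1, which encodes the DNA sensor cGAS, rose from 7.44 and 6.26 CPM to 10.3 and 10.4 CPM (0.61, edgeR adjusted p = 5.16e-04). Of 4 genes for joining ISG15 to proteins edgeR called 0, with 1 at an unadjusted p under 0.05, and DESeq2 called 0. Of 12 interferon gamma-induced GTPases 1 was lower and 1 higher.

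The remaining type I effectors held most of the calls, with 15 of 35 lower and 3 higher and a median of -0.150. Cmpk2, a mitochondrial nucleotide kinase that lies next to Rsad2, fell from 60.9 and 61.7 CPM to 46.6 and 40.5 CPM (-0.47 in log2, SE 0.0531, edgeR adjusted p = 8.74e-07). Rtp4 fell from 75.2 and 78.0 CPM to 59.3 and 57.7 CPM (-0.37, edgeR adjusted p = 8.96e-07), and Oasl2 from 61.5 and 65.1 CPM to 52.3 and 49.2 CPM (-0.30, edgeR adjusted p = 6.94e-05). The groups did not overlap for any of these. Cxcl10, a chemokine induced by both types of interferon, went the other way, from 16.8 and 16.7 CPM to 26.7 and 24.0 CPM (0.62, edgeR adjusted p = 2.22e-06). Ifitm3, a membrane protein that blocks virus entry, was higher by 0.07, a sign that turned to -0.00 without TMM scaling.

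In microglia-like cells of the Lama5 knockout, none of the 3 members that could be tested was called, beside 12.5% of 9927 genes. Bst2 stood at 104 and 101 CPM in WT and at 105 and 109 CPM in the knockout, with a log2 fold change of 0.06 (edgeR adjusted p = 0.734). Isg15 stood at 19.2 and 14.0 CPM against 16.2 and 19.7 CPM, with overlap (0.09, edgeR adjusted p = 0.860). Ifi35 stood at 27 and 29.1 CPM against 23.2 and 21.2 CPM, a log2 fold change of -0.33 (SE 0.178) with an edgeR adjusted p of 0.262. By edgeR 0 of the 3 had an unadjusted p under 0.05, and DESeq2 also called 0. The other 6 genes were under the low-count filter, and with no such filter all 9 were tested and 0 called. Of these 6, Ifit1 was higher in both knockout libraries (8 UMIs in WT, 27 in the knockout), Rsad2 (8 and 3) and Usp18 (11 and 7) were lower, and Ifit3, Irf7 and Ifit2 overlapped. With Ifi35 and Bst2 counted, 3 of the 9 were lower and 2 higher in both knockout libraries than in both WT libraries. The lower arrangement held for 24.2% of the 12355 genes with 10 or more UMIs in this class, so nothing is read from these counts.

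Microglia-like cells with several of the genes were rare in the Lama5 experiment. At 2000 UMIs, 0.213% and 0% of WT cells and 0.119% and 0.130% of knockout cells had 3 or more, and the 0 of 425 cells allows up to 0.706% (3 cells) or, as the upper end of the exact 95% interval, 0.864%. The groups overlap. The cells with 3 or more held 0 to 4.02% of the member UMIs there, against 47.0% or more in endothelial-like cells.

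The pathway lists in these microglia-like cells held more calls: of 63 genes tested, 12 were lower and 2 higher by edgeR, with a median log2 fold change of -0.171 beside -0.00884 over all genes. Over all genes 4.93% were lower and 7.55% higher. Cxcl10 fell from 285 and 236 CPM to 172 and 122 CPM (-0.81, edgeR adjusted p = 2.17e-06), the opposite direction to that in endothelial-like cells. Irf1, a transcription factor induced by interferon gamma, fell from 77.4 and 79.9 CPM to 47.1 and 46.3 CPM (-0.75, edgeR adjusted p = 4.51e-05), and Ifngr1 from 458 and 430.2 CPM to 347 and 352 CPM (-0.35, edgeR adjusted p = 3.54e-05). Only these 3 kept their call in every alternative setting, and DESeq2 called 4 lower and 2 higher. The difference in Cxcl10 between the classes was not tested.

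In the other classes the members were sparse and few could be tested against the Lama5 WT. In smooth muscle-like cells, where 7.59% of genes were called, Isg15 stood at 160.1 and 149 CPM in WT and at 176 and 188 CPM in the knockout (0.25 in log2, SE 0.0875, edgeR adjusted p = 0.0569). Both knockout libraries were higher, yet Isg15 did not pass the threshold, and neither did Bst2 (0.26, edgeR adjusted p = 0.300) except without the first knockout library (0.51, adjusted p = 0.0448). In pericyte-like cells, with 0.219% of genes called, Ifi35 was at 47.7 and 41.2 CPM in WT and 19.9 and 30.4 CPM in the knockout, from 9 to 22 UMIs a library, and its edgeR adjusted p was 0.515. By edgeR 0 of 3 members was called in either class and 1 in each had an unadjusted p under 0.05. No member was called among 5 tested in oligodendrocyte-like cells (9.70% of genes called) or 2 in perivascular macrophage-like cells (1.73%), by edgeR or DESeq2, with 0 at an unadjusted p under 0.05, and none could be tested in astrocyte-like cells (1.21%). In perivascular macrophage-like cells 4 members too sparse to test were higher in both knockout libraries, and 0 members were lower. These were Irf7 (3 UMIs in WT, 14 in the knockout), Rsad2 (1 and 8), Usp18 (5 and 9) and Ifit2 (2 and 4), with no share over all genes to set beside them. Of 31 other pathway genes tested there, edgeR called Ifi27l2a higher (1.03 in log2, adjusted p = 3.89e-04) and DESeq2 called 0.

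One member was called outside the vessel wall, in neuron or neuroblast-like cells, where 6.79% of genes were called. Bst2 fell from 26.0 ± 1.63 CPM in WT to 2.60 ± 1.15 CPM in the knockout (-3.22 in log2, SE 0.614, edgeR adjusted p = 0.00154). The counts were 15 and 22 UMIs in 6 and 7 WT cells against 2 and 1 UMIs in 2 and 1 knockout cells, all in the same cluster. The call was lost with DESeq2 (adjusted p = 0.117) and without either WT library (0.0599 and 0.0605). The other members had too few UMIs to be tested, but the sum of the 9 was 99.8 ± 31.3 CPM in WT and 17.5 ± 1.90 CPM in the knockout. Of 18 other pathway genes tested in this class, edgeR called 4 lower and 0 higher, and DESeq2 called 2. Ifitm3 fell from 121 and 117 CPM to 15.4 and 8.97 CPM (-3.28 in log2, edgeR adjusted p = 1.17e-07). Astrocyte markers in that class summed to 4394 to 5320.4 CPM in WT and 1176 to 1644 CPM in the knockout, and dissociation genes to 4314 to 5455 and 1503 to 2118 CPM; their part was not tested.

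The Lama4 knockout has 1 distinct library, so its values are set beside both WT libraries with no test, and a difference is named only past 1.5-fold, outside both WT libraries and in a gene whose mean over the libraries compared was at least 5 CPM. In endothelial-like cells 0 of the 9 genes passed, beside 1.13% of 9606 genes in either direction and 0.406% above WT. Ifit1 stood at 195 CPM in the knockout and at 178 and 182 CPM in WT, a ratio of 1.08 with a counting interval of 1.04 to 1.13. Usp18 stood at 53.9 CPM against 58.2 and 58.5 CPM, a ratio of 0.924 (0.854 to 1.00). In all, 4 genes were above both WT libraries, beside 39.6% of genes, and 2 were below. The median log2 ratio of the 9 was 0.0210, beside 0.00217 over all genes. The share of cells with 3 or more was 28.5% and 30.5% in WT and 31.1% in the knockout, whose interval of 29.1 to 33.1% holds the second WT value.

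In microglia-like cells of the Lama4 knockout, Ifit2 and Ifit3 were past 1.5-fold and above both WT libraries, beside 0.627% of 9093 genes above and 1.98% in either direction. At any size 7 of the 9 were above both, beside 37.8% of the 9093 genes with a mean of at least 5 CPM. Only 5 of the 9 reached that minimum, so the 2 shares are over unlike sets. Ifit2 stood at 17.2 CPM against 2.62 and 2.27 CPM, a ratio of 7.0 (counting interval 5.03 to 9.88), and Ifit3 at 10.4 CPM against 4.30 and 5.34 CPM, a ratio of 2.17 (1.60 to 2.94). A few cells held much of this: of 130 Ifit2 UMIs 59 lay in 1 cell and 105 in 5 cells. Without the 5 highest cells of each library, 25 Ifit2 UMIs were left in the knockout against 10 and 11 in WT, and 45 Ifit3 UMIs against 21 and 26. Rsad2 had 39 of its 46 UMIs in 5 cells, and without the 5 highest cells of each library it had 7 against 10 and 14. Ifit1 (5.15 CPM against 1.78 and 3.56) and Rsad2 (6.07 against 2.43 and 2.77) were also more than 1.5-fold above WT but under the 5 CPM minimum. Bst2, spread over many cells, stood at 191 CPM against 160.4 and 161 CPM, a ratio of 1.19 (1.12 to 1.27), above both WT libraries but under the size rule.

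**Figure D4:**
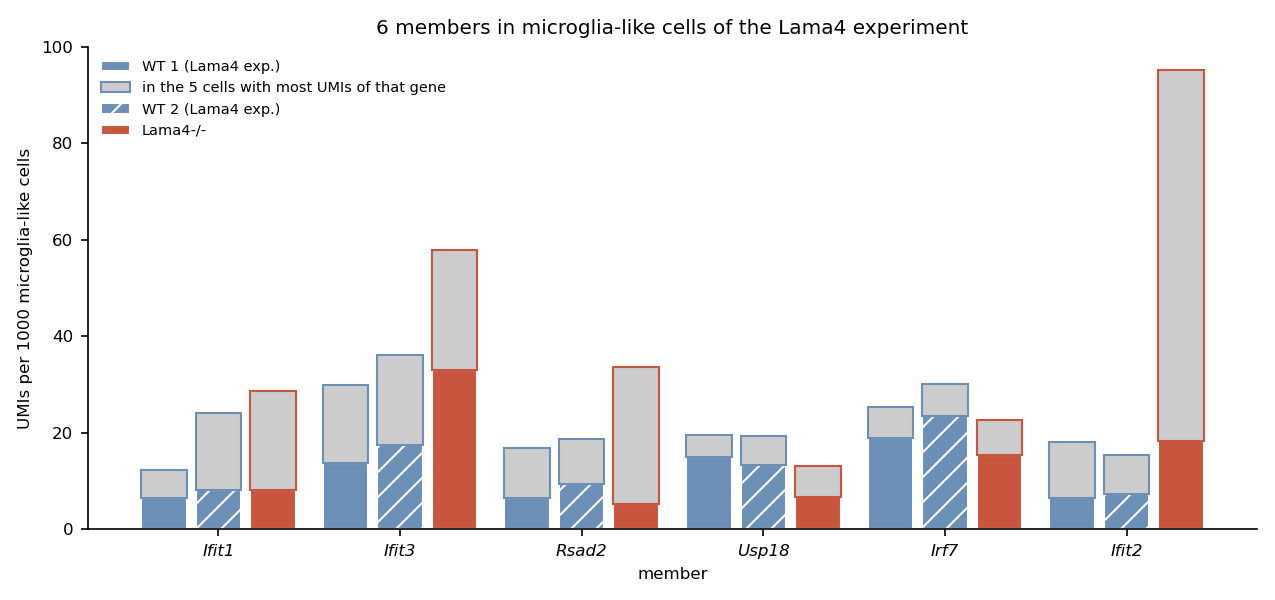
UMIs per 1000 microglia-like cells for 6 of the genes in the 3 libraries of the Lama4 experiment, with the part held by the 5 highest cells of each library in grey. For Ifit2 in the knockout, 105 of 130 UMIs lie in 5 cells.

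Cells with 3 or more of the genes made up 1.21% of thinned microglia-like cells in the Lama4 knockout (14 of 1161, interval 0.661 to 2.01%) and 0.498% and 0.363% in its WT. They held 21.6% of member UMIs in the knockout against 8.48% and 6.13% in WT, and the level in the remaining cells was 233 CPM against 205 and 212. Other interferon genes past the same rule in these cells included Gbp2 at 38.2 CPM against 5.70 and 5.83, Igtp at 40.7 against 21.4 and 19.5, Gbp3 at 24.3 against 12.7 and 15.8, and Ifi204 at 7.92 against 4.58 and 2.57. No pathway gene passed it in endothelial-like cells. Markers of choroid plexus, 7 genes with none at 0, summed to 1367 CPM in microglia-like cells of the knockout and 132 to 174 CPM in WT, and T and NK cell markers to 27.3 against 3.70 to 8.33 CPM. Their part in these values was not tested.

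In the remaining classes of the vessel wall the members that passed were lower in the Lama4 knockout, most of them from few UMIs. Isg15 in smooth muscle-like cells stood at 86.9 CPM against 112 and 157 CPM, a ratio of 0.642 (0.542 to 0.758) and the 1 member past the rule there, beside 7.92% of genes. Bst2 (122 CPM against 103 and 110.0), Ifi35 (45.7 against 42.2 and 35.8) and Ifit2 (6.03 against 3.58 and 3.61, under the 5 CPM minimum) were above both WT libraries in that class. In pericyte-like cells Ifit3, Isg15, Ifit2 and Ifi35 were past it and lower, beside 16.3% of genes, and the WT libraries themselves were far apart, with 27 and 59 UMIs of Isg15. In perivascular macrophage-like cells Ifit1, Rsad2, Irf7 and Ifit2 were past it and lower, beside 23.8% of genes, Rsad2 at 20.6 CPM against 49.2 and 57.1 CPM. Bst2, at 1109.8 CPM against 1072 and 942, and Ifi35, at 44.7 against 43.6 and 38.0, were above both WT libraries there without passing it. In B lineage-like cells, 52 in the knockout, 4 members were past it and higher, beside 1633 genes higher and 2190 lower of 9338. Among them were Bst2 at 259 CPM against 145 and 137, and Isg15 at 80.8 against 23.9 and 34.7. No member was below both WT libraries in that class. Of 2 members at the 5 CPM minimum, 1 passed in neuron or neuroblast-like cells, beside 1384 genes higher and 2161 lower of 11659. In astrocyte-like cells 0 of 2 passed.

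Between the WT pools, most members were lower in the Lama5 experiment. The 9 genes were picked with the counts of these libraries known, and the Lama5 WT was 1 side of the comparison that guided the choice. Calls and p-values of the members between the WT pools are therefore a description, not independent support. In endothelial-like cells 7 of the 9 genes were called between the WT pools by edgeR, 6 lower and 1 higher in the Lama5 experiment, beside 26.7% of 13285 genes lower and 28.8% higher. Ifit3 had a mean of 76.9 CPM in the Lama4 WT and 49.0 CPM in the Lama5 WT (-0.63 in log2, SE 0.0533, edgeR adjusted p = 1.07e-07), on a scale shared by the 4 WT libraries. Irf7 went from 116 to 81.4 CPM (-0.48, edgeR adjusted p = 2.07e-07), Ifit1 from 173 to 124 CPM (-0.46, edgeR adjusted p = 2.41e-08) and Ifi35 from 123 to 91.6 CPM (-0.40, edgeR adjusted p = 1.58e-07). Ifit2 (-0.48) and Usp18 (-0.26) were also lower, the former not when doublets were kept (adjusted p = 0.144).

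Rsad2 was the exception, higher at 136 CPM in the Lama5 WT against 123 CPM (0.16, edgeR adjusted p = 0.00142), a call lost without TMM scaling (adjusted p = 0.186), under which the median of all genes moved to -0.104. Its neighbour Cmpk2 was also higher, by 0.17 (edgeR adjusted p = 0.00404). Isg15 (-0.07, edgeR adjusted p = 0.0529) and Bst2 (-0.03, edgeR adjusted p = 0.371) were not called, and their sign turned in 1 and 2 settings. Isg15 was called lower in 6 other settings, among them no TMM scaling (-0.18), and Bst2 in 2 (-0.14 without TMM scaling and -0.08 with stricter cell filters). Of the 79 other pathway genes 42 were lower and 13 higher, among them 3 of the 4 for ISG15 conjugation (Ube2l6 -1.01, Herc6 -0.64 and Uba7 -0.32) as lower and the inhibitor Socs1 as higher, at 36.0 and 37.5 CPM against 6.09 and 6.85 CPM. Experiment, WT pool and depth cannot be told apart here, and dissociation genes summed to 10692 to 10733 CPM in the Lama4 WT and 18943 to 18992 CPM in the Lama5 WT.

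In microglia-like cells edgeR called 3 of 9 members between the WT pools, all lower in the Lama5 WT, beside 25.9% of genes lower and 53.9% in either direction: Bst2 at 177 CPM against 93.8 CPM (-0.83, edgeR adjusted p = 1.82e-08), Ifi35 (-0.45, adjusted p = 0.00629) and Ifit3 (-1.89, adjusted p = 0.00386). Neither of the latter passed with DESeq2 (0.133 and 0.0554), and Ifi35 lost its call without TMM scaling (0.186) and without the first Lama5 WT library (0.0903) as well. In perivascular macrophage-like cells 4 of 9 were called, beside 11.5% of genes, with Bst2 at 1017 CPM against 644 CPM (-0.58, edgeR adjusted p = 8.19e-04). For Ifit2, Ifit3 and Rsad2 there the calls came from few cells: Ifit2 had 32 UMIs in 5 cells and 20 in 8 cells in the Lama4 WT against 1 and 1 UMI in the Lama5 WT, and Rsad2 had 35 and 42 UMIs against 1 and 0. DESeq2 called none of these 3 (0.151 for Ifit3, and no adjusted p for the other two). By edgeR, Ifit2 lost its call without either Lama5 WT library (0.131 and 0.0758), Ifit3 without the first Lama4 WT library (0.116) and Rsad2 with doublets kept (0.0555). Bst2 kept its call in every setting tried.

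Interferon genes themselves were scarcely seen. Over all kept cells Ifnb1 had 87 UMIs in 39 cells and Ifng 279 UMIs in 55 cells, of which 133 and 75 came from the Lama4 WT libraries and 58 from the Lama4 knockout. In the Lama5 experiment Ifng had 7 and 2 UMIs in WT and 1 and 3 in the knockout. Ifna1, Ifna4, Ifnl2 and Ifnl3 had none.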

How the data were processed

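Deposited matrices held UMI counts per gene and cell barcode, made by the authors with Cell Ranger 3.1.0 per the file headers; the submitters' processing notes also name mm10 and Seurat 3.1. The 9 members and all gene lists were chosen with earlier results of these data known. Cells had at least 500 genes and under 15% mitochondrial UMIs (47239 of 56961 barcodes kept; 3015 removed by a simulated-doublet score at 0.8% per 1000 cells). They were clustered on 2000 variable genes and 30 components with Leiden at resolution 1 (Python 3.11.15, igraph 0.11.9), with the interferon lists left out, and named from 3 or more markers; 794 cells stayed unnamed. Classes with at least 50 cells in a library were used for shares. Counts were summed per library and class and tested with edgeR 4.0.16 (R 4.3.3, quasi-likelihood, TMM, Benjamini-Hochberg over all genes, threshold 0.05), with DESeq2 1.42.0 as an alternative, after a test on simulated data. Named genes were all members, up to 8 called genes per list and class, and the 10 genes most like the members in endothelial-like cells; too few microglia-like cells had 3 or more members to rank genes there. Same-numbered libraries did not deviate together (correlations from -0.0855 to 0.0393), so numbers were not used as pairs. Alternatives chosen after seeing the data were thinning to the TMM-scaled depth and the refits of the other pathway genes.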

Additional observations from a re-analysis of the deposited data

Results flagged for a closer look

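In endothelial-like cells 3 of the 9 genes, and the share of cells with several of them, lay on opposite sides of WT in the 2 knockouts. The Lama4 knockout library lay above both of its WT libraries, and both Lama5 knockout libraries lay below both of theirs. In the Lama4 knockout 0 of the 9 genes passed the 1.5-fold rule, so no difference is named there. Over all genes 39.6% lay above both Lama4 WT libraries and 29.4% below both Lama5 WT libraries, and the genes were picked with the Lama5 fall known. Each of these shares is for 1 condition alone. The share of genes that met both is not given, so nothing is read from the 3 of 9. Ifit1 stood at 195 CPM in the Lama4 knockout against 178 and 182 CPM, and at 101 and 96.7 CPM in the Lama5 knockout against 120.4 and 115 CPM. Ifit3 stood at 86.0 CPM in the Lama4 knockout against 82.8 and 77.4 CPM. Bst2 stood at 338 CPM there against 334 and 333 CPM, a ratio of 1.01 whose counting interval, 0.983 to 1.05, includes no change. The share of cells with 3 or more of the genes was 31.1% in the Lama4 knockout (29.1 to 33.1%) against 28.5% and 30.5%, and 17.3% and 16.8% in the Lama5 knockout against 22.9% and 21.7%. With 1 distinct Lama4 knockout library, the difference between the knockouts was not tested.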

How the results depend on the processing

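The median of the 9 genes in endothelial-like cells of the Lama5 knockout (-0.232) was -0.311 without TMM scaling and -0.233 with a replicate block, and ranged from -0.266 to -0.196 when 1 library was left out. Numbers do not pair the libraries, and the block moved the calls over all genes from 2418 to 1982 and left 7 members called between the WT pools. The share difference there (-5.25 percentage points) was -6.28 for 2 or more genes, -3.20 for 4 or more, -1.99 at 1000 UMIs, -9.09 unthinned, -4.57 at the TMM-scaled depth, and -5.81 to -4.69 with 1 library left out. In microglia-like cells (0.0176 points) the same difference was -0.730, -0.107, -0.181, -0.204 and -0.332, and -0.343 with doublets kept, and ranged from -0.0891 to 0.124 with 1 library left out. The Lama4 endothelial median (0.0210) was 0.0697 without TMM scaling, 0.00795 with doublets kept, 0.0257 with stricter cell filters and 0.0269 with the members in the clustering, and 0.0177 to 0.0228 with 1 WT library left out. Members called between the WT pools in endothelial-like cells numbered 6 to 9. Over all genes in the Lama5 endothelial comparison, 1343 were higher and 1075 lower; without TMM scaling this was 770 and 2758, with the median of all genes at -0.0796, DESeq2 called 943, and with 1 library left out 1701 to 2070 were called. Between the WT pools 7367 genes were called, and DESeq2 called 4738. Ifitm3 had -0.00 without TMM scaling (adjusted p = 0.896). Ratios from 1 knockout library and shares under 1% are limited by counts.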

Other observations

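A small cluster led by globin genes had no class name and held 175 cells. In the Lama4 experiment its 7 knockout cells had 72 UMIs of Rsad2 and 117 of Isg15, 825 and 1341 CPM, with 0 of Ifit1, and its 55 WT cells had 164 and 176 UMIs, 206 and 221 CPM. In the Lama5 experiment Rsad2 and Isg15 stood at 164 and 179.9 CPM in 64 WT cells and at 147 and 211 CPM in 49 knockout cells. Another cluster with no class name held 64 WT and 162 knockout cells of the Lama5 experiment. Isg15 (233 CPM against 175 in WT), Irf7 (109 against 91.5) and Ifit3 (42.3 against 22.2) were higher in its knockout cells. Bst2, Rsad2, Usp18 and Ifit2 were also higher there, while Ifit1 (61.0 against 95.6) and Ifi35 (53.2 against 61.0) were lower. These values pool the libraries of a group, and the differences were not tested.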
